A study of Mus musculus with 16 samples.

Results

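Amino acid transporters are membrane proteins that carry amino acids, and in some members related solutes such as taurine, creatine or nucleobases, across the plasma membrane or out of the lysosome. The genes described here were those of the solute carrier families Slc1, Slc3, Slc6, Slc7, Slc36, Slc38 and Slc43. They were taken by symbol with no cut on their values, but with earlier results of these data known. They made up 64 of the 22180 genes measured, read from 68 of 41345 probe sets, and where a gene had several, the brightest on average across all 16 arrays stood for it. Of the 64 symbols, 3 (Slc6a19os, Slc7a6os and Slc36a1os) name opposite-strand genes and not carriers, which left 61. Expression was compared among 4 subsets of CD8 T cells, each on 4 arrays, from spleens of female C57BL/6 mice (the strain field of the labels reads C56BL/6) that had received chronic lymphocytic leukemia (CLL) cells from Eµ-TCL1 mice 6 weeks earlier. Eµ-TCL1 is a transgene that drives the oncogene TCL1 from an immunoglobulin enhancer in B cells and gives rise to a CLL-like B-cell leukemia. Every subset was Lin- TCRb+ CD8+. PD-1hi effector cells were CD127low CD44int-hi PD-1hi, PD-1int effector cells were CD127low CD44int-hi PD-1int, memory cells were CD127hi CD44hi, and naive cells were CD127hi CD44low. All 4 subsets came from leukemic mice, so no value describes a T cell from a mouse without leukemia.

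T cells that meet antigen take up more amino acids to build protein and nucleotides. The pair of Slc7a5 (LAT1) and Slc3a2 (the CD98 heavy chain) brings in leucine and other large neutral amino acids, Slc1a5 (ASCT2) carries glutamine, and Slc7a1 (CAT1) carries arginine. Leucine and arginine are sensed at the lysosome by the kinase complex mTORC1, and a lack of amino acids is sensed by the kinase Gcn2, which raises translation of the transcription factor Atf4.

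Values are log2 expression as deposited, and the array medians lay between 6.394 and 6.489. No detection calls were used, so a level near the lower end can be absent. For reference, 40% of all genes had a mean below 6.17, and 37 of the 64 members had a mean above it. In bulk samples such as these, fewer cells of a type and less RNA per cell cannot be told apart. The labels do not say whether the 4 arrays of a subset came from separate mice, so the p-values reflect only how much these arrays varied, which may be technical. The defining CD8 T-cell genes were high in all subsets: the 7 measured had summed linear values of 35718 to 39582 in PD-1hi, 35592 to 37557 in PD-1int, 34049 to 35674 in memory and 34147 to 35120 in naive arrays. The 10 B-cell markers summed to 691 to 836 in PD-1hi, 820 to 990 in PD-1int, 1365 to 1578 in memory and 818 to 947 in naive arrays. Among them Cd22 was 3.22 ± 0.12 (log2 ± SE) higher in memory than in naive cells (limma adjusted p = 2.46e-12). Cd22 was also higher than in naive in PD-1hi (0.84 ± 0.12, limma adjusted p = 2.38e-05) and in PD-1int (1.74 ± 0.12, 4.16e-09). None of the other 9 was called in memory against naive (differences between -0.52 and 0.26). Bank1 and Cd79b were lower than in naive in PD-1hi (-0.91 and -0.97) and in PD-1int (-0.83 and -0.72). The 5 natural killer markers, several of which CD8 effector and memory cells also express, summed to 14764 to 15203 in PD-1hi, 14411 to 14913 in PD-1int, 10044 to 10232 in memory and 4448 to 5191 in naive arrays. The 4 CD4 T-cell markers lay between 292 and 359 in every array. The 2 measured markers of erythroid cells and platelets lay between 201 and 340 in every array. Their part in the results below was not tested. The 4 memory arrays also differed among themselves: over 19 mitosis genes replicates 1 and 4 averaged 8.66 and 8.48 on the log2 scale, and replicates 2 and 3 averaged 7.44 and 7.46.

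Few of the 64 members differed between subsets, and the share was below that of all genes in each comparison. A gene was called where limma gave an adjusted p under 0.05 (Benjamini-Hochberg, across the 22180 genes). PD-1hi differed from naive in 10 members, 4 higher and 6 lower, which is 15.6% of the members against 27.1% of all genes (13.4% of all genes were called higher and 13.7% lower). PD-1int differed from naive in 8 members, 4 in each direction, 12.5% against 22.7% of all genes (11.9% higher and 10.8% lower). Memory differed from naive in 5 members, 3 higher and 2 lower, 7.81% against 11.7% of all genes (6.70% higher and 5.02% lower). PD-1hi differed from memory in 10 members, 3 higher and 7 lower, 15.6% against 21.9% of all genes (10.8% higher and 11.1% lower). Without memory replicates 1 and 4, 3 members were higher and 3 lower in PD-1hi than in memory. The share of all genes called in that smaller fit is not given, so these counts cannot be read as particular to the members. Of the 7 lower with all arrays, Slc1a5, Slc6a6, Slc6a19, Slc7a1 and Slc7a6 lost their calls there. Slc7a5 and Slc36a4 kept theirs, so the 3 lower were not all among the 7. PD-1int differed from memory in 4 members, 2 in each direction, 6.25% against 16.2% of all genes (8.49% higher and 7.66% lower). Without those memory arrays it differed in 1 each way, again with no share of all genes given. Between the effector subsets, 0 members were higher and 1 lower in PD-1hi than in PD-1int in limma, 1.56% against 3.31% of all genes (1.37% higher and 1.94% lower), and 8 members had an unadjusted p under 0.05. That 1 call was lost when any of 6 of the 8 arrays compared was left out. The 3 comparisons with naive share the naive arrays. The median log2 difference of the members was 0.00 in PD-1hi against naive, beside -0.01 over all genes, and it lay between -0.04 and 0.04 in the other 5 comparisons. Over all 6 comparisons 13 members (20.3%) were called at least once and 51 in none, while 36.1% of all genes were called at least once. Each of the 13 lay above the 40% dimmest genes.

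**Figure D1:**
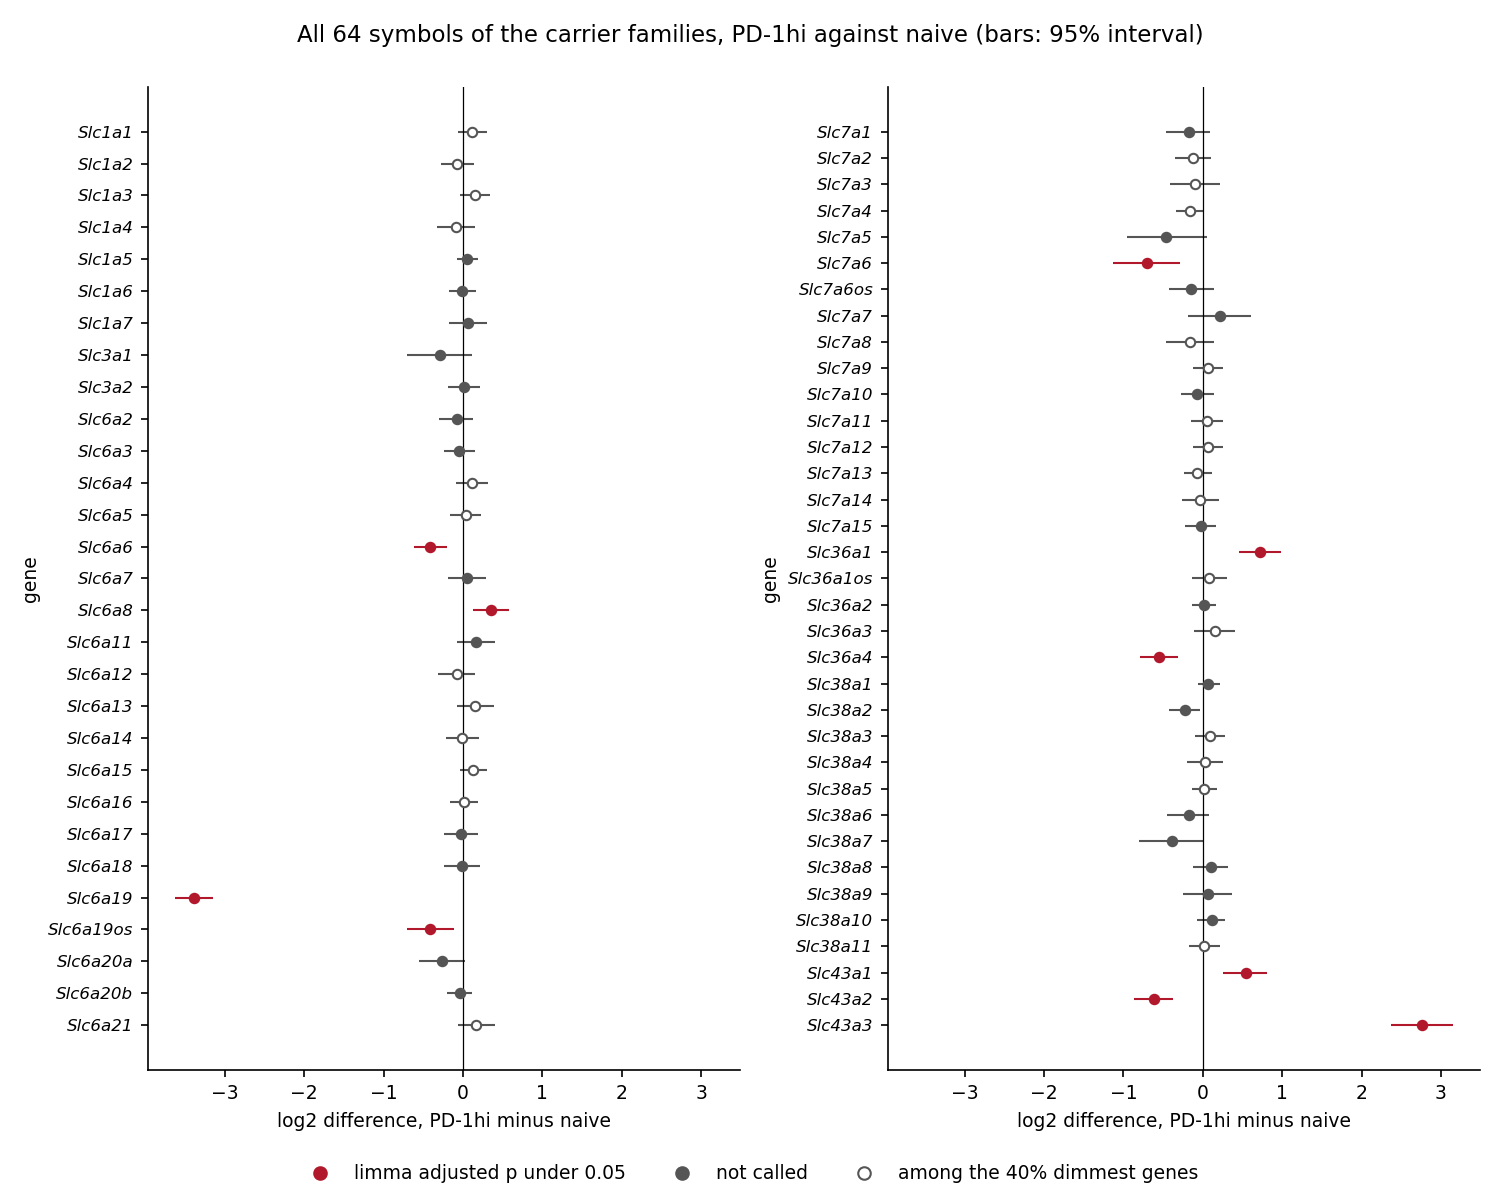
Log2 difference of PD-1hi minus naive for each of the 64 symbols with its 95% confidence interval, filled where the gene is above the 40% dimmest genes and open where it is not, with coloured points for the called genes. Slc43a3 at 2.76 and Slc6a19 at -3.39 stand far from the others, most of which lie close to 0.

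**Figure D2:**
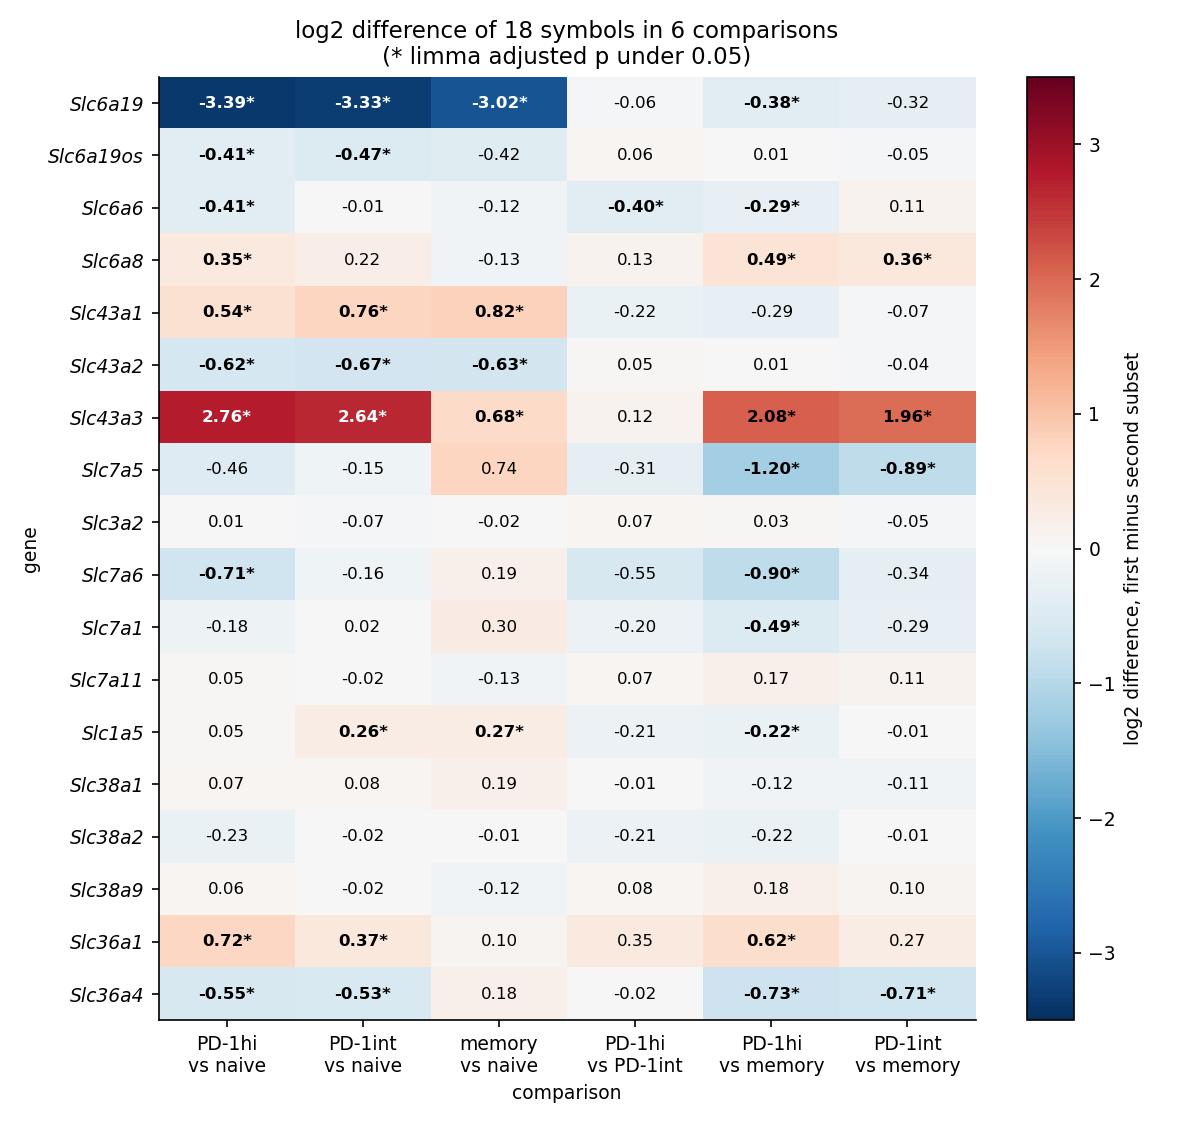
Log2 difference of the first minus the second named subset for 18 symbols (rows) in the 6 comparisons (columns), with the value printed in each cell and the calls marked. Slc6a19 is at -3.39, -3.33 and -3.02 in the 3 comparisons with naive, and Slc43a3 is at 2.76 and 2.64 in both effector subsets against naive.

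Slc6a19 encodes B0AT1, a sodium-dependent carrier of neutral amino acids best known from the gut and the kidney. Its level was 5.99, 6.36, 6.23 and 6.23 in the PD-1hi arrays, 6.23, 6.49, 6.29 and 6.04 in PD-1int, 6.50, 6.56, 6.51 and 6.76 in memory, and 9.56, 9.68, 9.81 and 9.34 in naive. All 4 naive arrays were far above the other 12, whose values lay around the level below which the 40% dimmest genes fall. Slc6a19 was lower than in naive by a log2 difference of -3.39 ± 0.11 in PD-1hi (limma adjusted p = 1.9e-13). The difference from naive was -3.33 ± 0.11 in PD-1int and -3.02 ± 0.11 in memory. Because the level outside naive cells was not shown to be above background, these differences can be compressed, and no fold is given. Among the other 3 subsets the levels were close: PD-1hi differed from memory by -0.38 ± 0.11 (limma adjusted p = 0.0218). That call was lost without PD-1hi replicate 1 (adjusted p = 0.0828), without memory replicate 4 (0.0799) and without both memory replicates 1 and 4 (0.144). PD-1int differed from memory by -0.32 ± 0.11, which was not called (0.0679) but was without PD-1int replicate 2 (0.0317). Slc6a18, which lies next to Slc6a19 on chromosome 13 with 0 protein-coding genes between them, was called in none of the comparisons. Slc6a19os overlaps Slc6a19 on the opposite strand and was singled out after its values were seen. Its level was 6.17, 6.25, 5.99 and 6.30 in PD-1hi, 6.07, 6.17, 6.05 and 6.18 in PD-1int, 6.09, 6.21, 6.28 and 6.09 in memory, and 6.86, 6.79, 6.71 and 5.99 in naive. In naive cells 3 arrays were above every array of the other subsets and the fourth, replicate 4, was as low as the lowest PD-1hi array. The call against naive (-0.41 ± 0.14 in PD-1hi, limma adjusted p = 0.0393) was lost without PD-1hi replicates 1, 2 or 3 or naive replicates 1, 2 or 3, with adjusted p between 0.0522 and 0.137. That call was also lost in a fit of those 8 arrays alone (limma adjusted p = 0.12). In PD-1int (-0.47 ± 0.14, adjusted p = 0.021) the call was lost without PD-1int replicate 3 or naive replicates 1, 2 or 3, with adjusted p between 0.055 and 0.0793. A fit of those 8 arrays alone lost it as well (limma adjusted p = 0.0684). In memory the difference of -0.42 was not called (0.0657), but it was without naive replicate 4 (adjusted p = 0.000131).

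**Figure D3:**
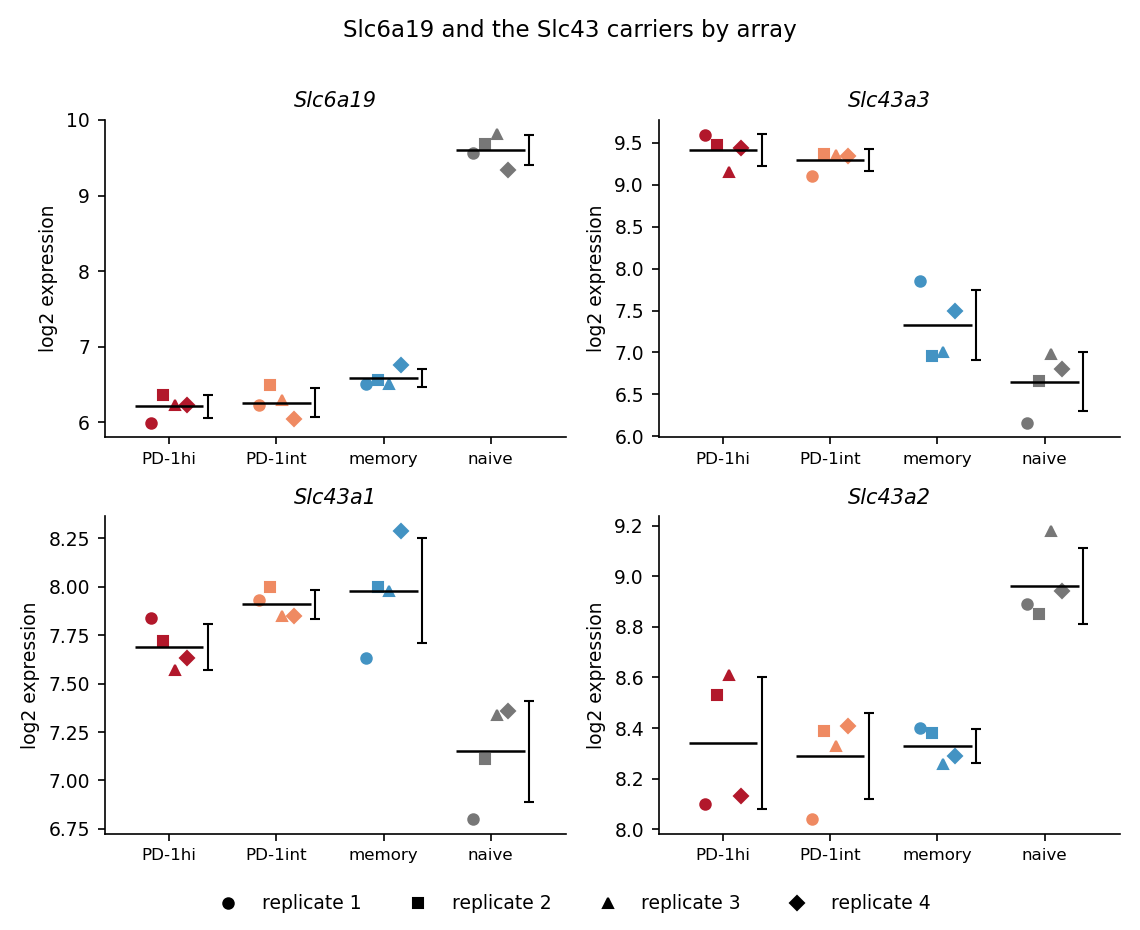
Log2 expression of Slc6a19, Slc43a3, Slc43a1 and Slc43a2 in each array (points, with the marker shape giving the replicate number) by subset, with the mean as a line and the SD as a bar (n = 4). Naive arrays of Slc6a19 lie between 9.34 and 9.81, and all others at or below 6.76.

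All 3 genes of the Slc43 family were called. Slc43a3, whose human counterpart carries purine nucleobases rather than amino acids, was the most raised member in the effector subsets. Its level was 9.59, 9.47, 9.15 and 9.44 in PD-1hi, 9.10, 9.36, 9.35 and 9.34 in PD-1int, 7.85, 6.96, 7.01 and 7.49 in memory, and 6.16, 6.66, 6.98 and 6.80 in naive. Both effector subsets lay above every memory and naive array, and they overlapped with each other. Slc43a3 was higher than in naive by 2.76 ± 0.18 in PD-1hi (6.78-fold, limma adjusted p = 1.5e-09) and by 2.64 ± 0.18 in PD-1int (6.22-fold). It was higher than in memory by 2.08 in PD-1hi (4.24-fold, limma adjusted p = 1.24e-07) and by 1.96 in PD-1int (3.89-fold). Memory exceeded naive by 0.68 ± 0.18 (1.6-fold, limma adjusted p = 0.0203), with overlapping arrays. The naive level of Slc43a3 was not shown to be above background, so its differences and folds over naive can be compressed. The memory arrays with the higher Slc43a3, replicates 1 and 4, were also those with the higher mitosis genes. The memory call was lost without memory replicate 1 (adjusted p = 0.0801), memory replicate 4 (0.0641) or naive replicate 1 (0.0748), and without both those memory arrays the difference was 0.34 (0.368). A fit of the 8 memory and naive arrays alone also lost that call (limma adjusted p = 0.0675). Mitosis genes were higher than in naive in 19 of 19 cases in PD-1hi and in PD-1int, and in 18 of 19 in memory. The 10 myeloid markers had a summed linear value of 4030 to 5048 in PD-1hi, 4162 to 4703 in PD-1int, 2609 to 2796 in memory and 1944 to 2347 in naive arrays. Of these, 3 were higher in PD-1hi than in naive (Cd68 by 3.05, Itgam by 1.03 and Cst3 by 0.57) and 0 were lower. Against naive, 4 were higher in PD-1int, and 3 in memory (Tyrobp, Fcer1g and Cst3). Against memory, 3 were higher in PD-1hi, and Tyrobp was lower (-0.65 ± 0.15, limma adjusted p = 0.00337). Csf1r (0.25 ± 0.14, limma adjusted p = 0.212) and Adgre1 (0.13 ± 0.11, 0.48) were not called in PD-1hi. The part of mitosis and of myeloid cells in the Slc43a3 values was not tested.

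Slc43a1 (LAT3) and Slc43a2 (LAT4), carriers of large neutral amino acids that need no sodium, moved in opposite directions. Slc43a1 was at 7.84, 7.72, 7.57 and 7.63 in PD-1hi, 7.93, 8.0, 7.85 and 7.85 in PD-1int, 7.63, 8.0, 7.98 and 8.29 in memory, and 6.80, 7.11, 7.34 and 7.36 in naive. The naive arrays were the 4 lowest. The rise over naive was 0.54 ± 0.13 in PD-1hi (limma adjusted p = 0.00371), 0.76 ± 0.13 in PD-1int and 0.82 ± 0.13 in memory. PD-1hi differed from memory by -0.29 ± 0.13 (adjusted p = 0.144, and 0.03 without memory replicate 1). Slc43a2 was at 8.10, 8.53, 8.61 and 8.13 in PD-1hi, 8.04, 8.39, 8.33 and 8.41 in PD-1int, 8.40, 8.38, 8.26 and 8.29 in memory, and 8.89, 8.85, 9.18 and 8.94 in naive. The naive arrays were here the 4 highest, and the other subsets overlapped. The fall against naive was -0.62 ± 0.12 in PD-1hi (limma adjusted p = 0.000468), -0.67 ± 0.12 in PD-1int and -0.63 ± 0.12 in memory. Slc43a1 and Slc43a3 lie on chromosome 2 with 1 protein-coding gene between them.

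Among the carriers that bring amino acids in at the cell surface, memory cells had the highest and PD-1hi cells the lowest mean of Slc7a5, Slc7a6 and Slc7a1. Slc7a5 was at 9.71, 8.40, 9.46 and 8.91 in PD-1hi, 9.85, 8.97, 9.74 and 9.15 in PD-1int, 10.33, 9.99, 10.45 and 10.52 in memory, and 9.50, 9.33, 9.80 and 9.67 in naive. Every memory array was above every array of the other subsets, and the array numbered 2 was the lowest in each of the 4 subsets. Slc7a5 was lower in PD-1hi than in memory by a log2 of -1.20 ± 0.24 (2.3-fold lower, limma adjusted p = 0.000927), and in PD-1int than in memory by -0.89 ± 0.24 (1.86-fold lower, 0.0138). The PD-1int call was lost without PD-1int replicate 2 (adjusted p = 0.056) or replicate 4 (0.0509), and without both memory replicates 1 and 4 (0.123). Memory exceeded naive by 0.74 ± 0.24, which was not called (limma adjusted p = 0.0523) but was without memory replicate 2 (0.0438), and in a fit of those 8 arrays alone (0.00331). PD-1hi differed from naive by -0.46 ± 0.24 (adjusted p = 0.193, and 0.0496 without PD-1hi replicate 1). Slc3a2, the heavy chain that Slc7a5, Slc7a6 and Slc7a11 need to reach the surface, was called in no comparison. Its level was 10.06, 10.10, 10.29 and 10.04 in PD-1hi, 10.26, 9.93, 10.02 and 10 in PD-1int, 10.05, 10.34, 9.99 and 10.02 in memory, and 10.17, 10.03, 10.17 and 10.09 in naive, and the subsets overlapped. Its difference between PD-1hi and memory was 0.03, with a 95% interval of -0.17 to 0.22.

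**Figure D4:**
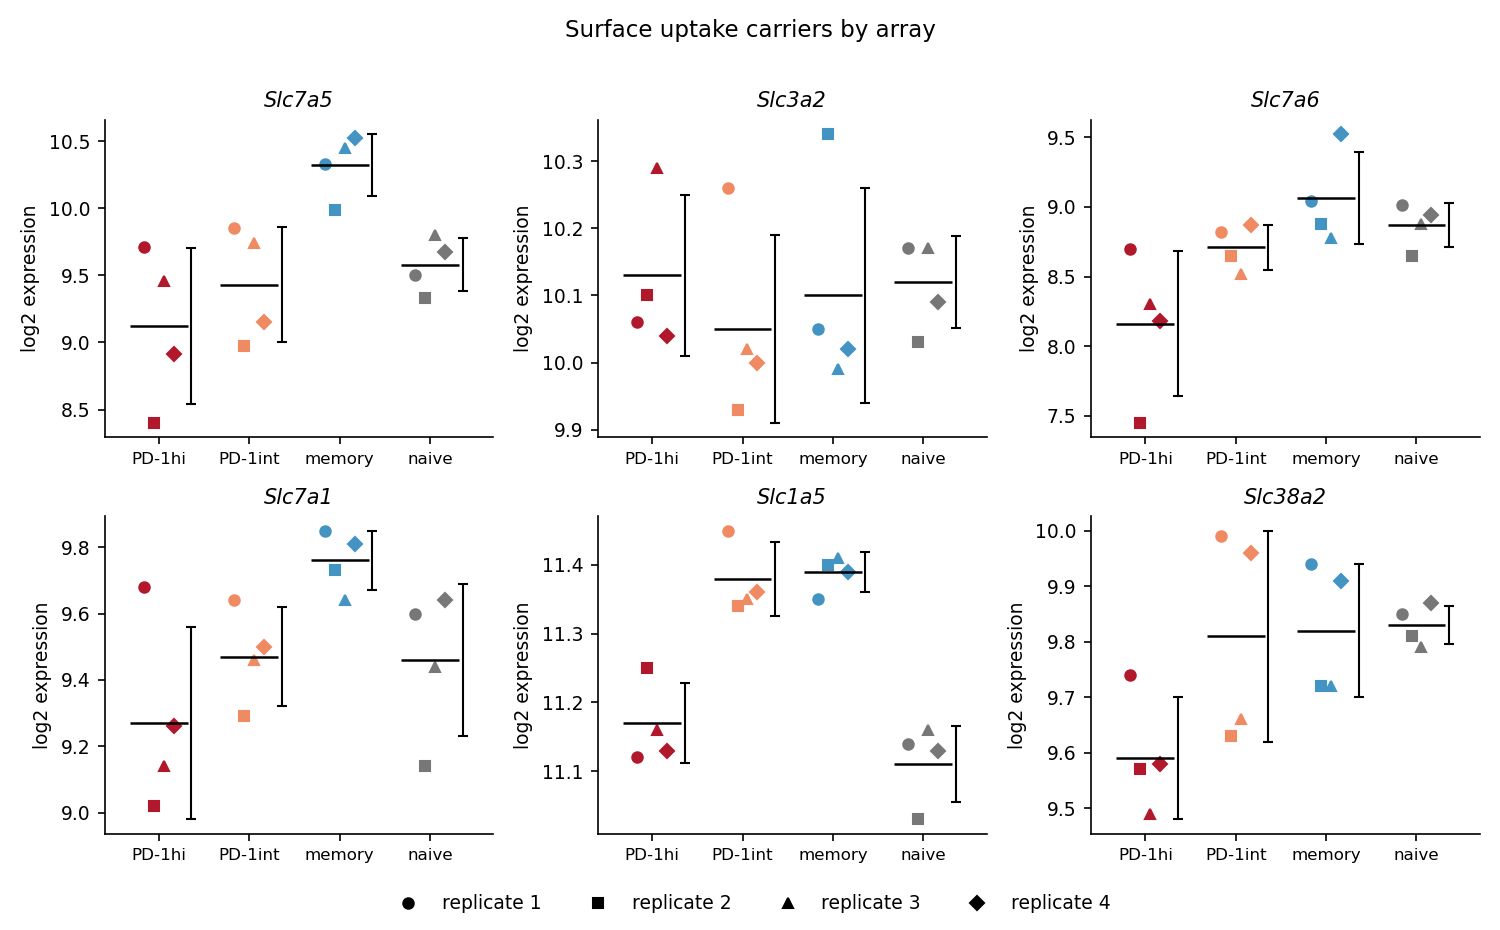
Log2 expression of Slc7a5, Slc3a2, Slc7a6, Slc7a1, Slc1a5 and Slc38a2 in each array (points, marker shape for the replicate number) by subset, with the mean as a line and the SD as a bar (n = 4). The memory arrays of Slc7a5 lie between 9.99 and 10.52, above all other arrays, while the 4 subsets of Slc3a2 overlap.

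Slc7a6 (y+LAT2), which exchanges arginine for neutral amino acids, was at 8.70, 7.45, 8.30 and 8.18 in PD-1hi, 8.82, 8.65, 8.52 and 8.87 in PD-1int, 9.04, 8.88, 8.78 and 9.52 in memory, and 9.01, 8.65, 8.88 and 8.94 in naive. PD-1hi replicate 2 was the lowest of the 16 arrays, and PD-1hi did not overlap with memory. The fall in PD-1hi was -0.90 ± 0.20 against memory (1.86-fold lower, limma adjusted p = 0.00261; 0.0581 without both memory replicates 1 and 4) and -0.71 ± 0.20 against naive (1.64-fold lower, 0.0118). Between PD-1hi and PD-1int the difference of -0.55 was not called (adjusted p = 0.178). Slc7a1 was at 9.68, 9.02, 9.14 and 9.26 in PD-1hi, 9.64, 9.29, 9.46 and 9.50 in PD-1int, 9.85, 9.73, 9.64 and 9.81 in memory, and 9.60, 9.14, 9.44 and 9.64 in naive. It was lower in PD-1hi than in memory by -0.49 ± 0.13 (limma adjusted p = 0.0106; 0.118 without both memory replicates 1 and 4), with 1 PD-1hi array inside the memory range. Memory was 0.30 ± 0.13 above naive, which was not called (0.173).

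Slc1a5 was at 11.12, 11.25, 11.16 and 11.13 in PD-1hi, 11.45, 11.34, 11.35 and 11.36 in PD-1int, 11.35, 11.40, 11.41 and 11.39 in memory, and 11.14, 11.03, 11.16 and 11.13 in naive. PD-1int and memory lay above PD-1hi and naive without overlap, by small amounts. Against naive the rise was 0.26 ± 0.06 in PD-1int (limma adjusted p = 0.00476) and 0.27 ± 0.06 in memory (0.00677). PD-1hi was lower than memory by -0.22 ± 0.06 (limma adjusted p = 0.0153; 0.0605 without both memory replicates 1 and 4) and differed from PD-1int by -0.21 (adjusted p = 0.0895, and 0.0155 with trend and robust eBayes). A second, dimmer probe set of Slc1a5, with means of 7.05 in PD-1hi, 7.07 in PD-1int, 6.93 in memory and 6.94 in naive, did not follow this order. With the mean of both probe sets the 3 calls were lost (0.0964 in PD-1int against naive, 0.387 in memory against naive and 0.769 in PD-1hi against memory). Slc38a1 and Slc38a2 encode the sodium-coupled glutamine and alanine carriers SNAT1 and SNAT2. Slc38a1 was at 11.20, 11.07, 11.13 and 11.04 in PD-1hi, 11.09, 11.13, 11.15 and 11.10 in PD-1int, 11.23, 11.18, 11.22 and 11.28 in memory, and 11.02, 10.95, 11.09 and 11.09 in naive. The memory arrays lay above the naive arrays, and PD-1hi overlapped with both. Slc38a2 was at 9.74, 9.57, 9.49 and 9.58 in PD-1hi, 9.99, 9.63, 9.66 and 9.96 in PD-1int, 9.94, 9.72, 9.72 and 9.91 in memory, and 9.85, 9.81, 9.79 and 9.87 in naive. The PD-1hi arrays lay below the naive arrays. Neither passed the threshold in any comparison, but both lay near it. Slc38a1 differed between memory and naive by 0.19 ± 0.06 (limma adjusted p = 0.0669), and was called without the 40% dimmest genes (0.0397) and with trend and robust eBayes (0.0141). Slc38a2 differed between PD-1hi and naive by -0.23 ± 0.09 (limma adjusted p = 0.0739), and was called without PD-1hi replicate 1 (0.0438), without the 40% dimmest genes (0.0489) and under quantile normalization (0.0191). Against memory it differed in PD-1hi by -0.22 ± 0.09 (0.102), and was called under quantile normalization (0.0444).

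Among the members that act at the lysosome or carry taurine or creatine, none was called between memory and naive, as for 59 of the 64 members. Slc36a1 (PAT1) exports small neutral amino acids with protons from the lysosome. It was at 8.99, 9.27, 9.30 and 8.97 in PD-1hi, 9.0, 8.44, 8.86 and 8.82 in PD-1int, 8.49, 8.45, 8.60 and 8.50 in memory, and 8.57, 8.35, 8.64 and 8.08 in naive. The PD-1hi arrays were above all memory and naive arrays, and 1 PD-1int array reached above the lowest of them. The rise in PD-1hi was 0.72 ± 0.13 against naive (1.65-fold, limma adjusted p = 0.000245) and 0.62 ± 0.13 against memory (1.54-fold, 0.00131). In PD-1int the rise over naive was 0.37 ± 0.13 (limma adjusted p = 0.0468), and it was lost without PD-1int replicates 1, 3 or 4 or naive replicates 2 or 4, with adjusted p between 0.0962 and 0.165, under quantile normalization (0.106) and under median centring (0.0525). That call was also lost in a fit of those 8 arrays alone (limma adjusted p = 0.105). PD-1int differed from memory by 0.27 (adjusted p = 0.199, and 0.0469 without PD-1int replicate 2). Slc36a4 (PAT4), a carrier of proline and tryptophan, moved the other way. It was at 11.66, 11.33, 11.34 and 11.51 in PD-1hi, 11.65, 11.57, 11.54 and 11.15 in PD-1int, 12.13, 12.30, 12.34 and 11.98 in memory, and 11.91, 12.14, 11.98 and 12.00 in naive. No effector array reached the memory or naive arrays. The fall against naive was -0.55 ± 0.11 in PD-1hi (limma adjusted p = 0.000944) and -0.53 ± 0.11 in PD-1int (0.00169), and against memory it was -0.73 ± 0.11 in PD-1hi (7.86e-05) and -0.71 ± 0.11 in PD-1int (0.000188). The second probe set of Slc36a4 averaged 7.79 in PD-1hi, 7.29 in PD-1int, 7.32 in memory and 7.72 in naive arrays and did not follow this order. With the mean of both probe sets, both PD-1hi calls were lost (adjusted p = 0.185 against naive and 0.552 against memory). Slc38a9, the lysosomal arginine sensor, was at 9.06, 8.92, 8.83 and 8.60 in PD-1hi, 8.59, 8.48, 9.25 and 8.76 in PD-1int, 8.60, 8.79, 8.56 and 8.73 in memory, and 8.78, 8.60, 9.09 and 8.68 in naive. The subsets overlapped, and it was called in no comparison.

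**Figure D5:**
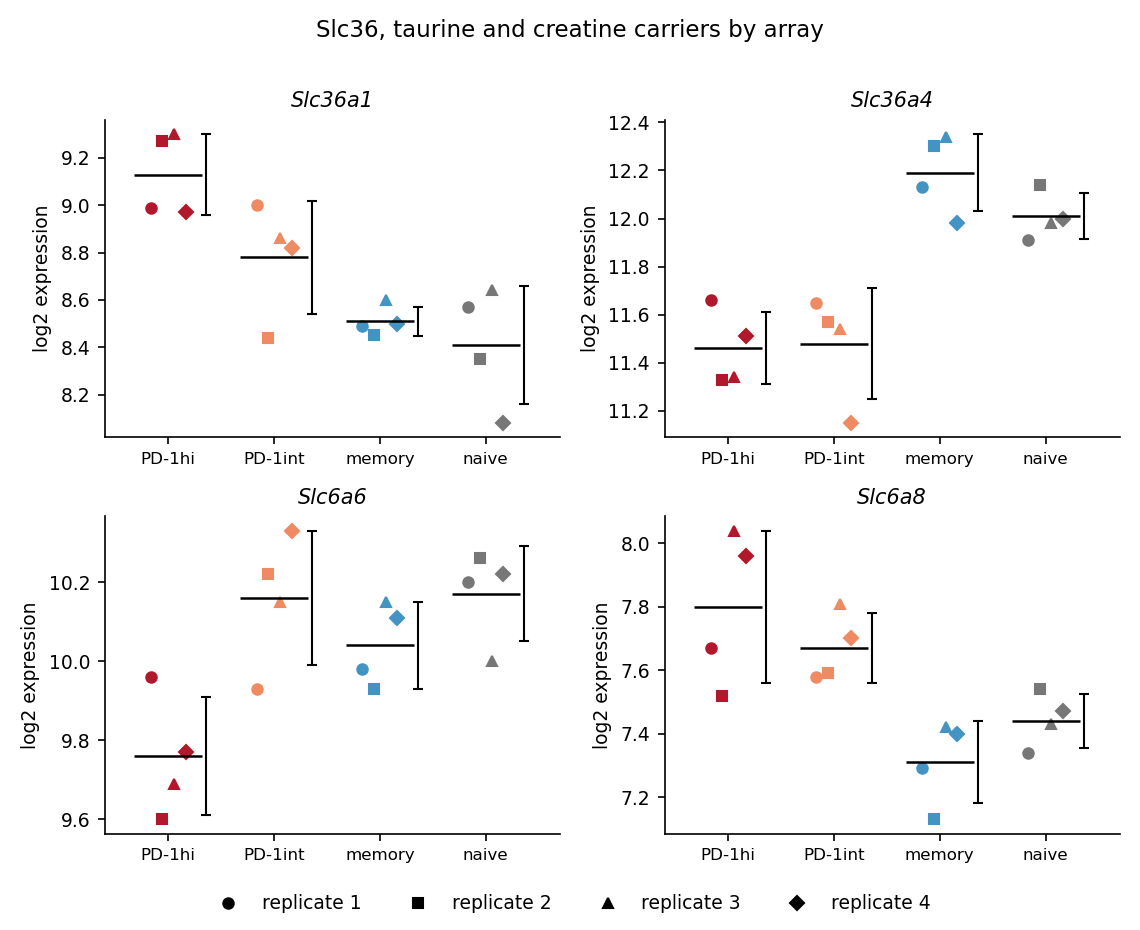
Log2 expression of Slc36a1, Slc36a4, Slc6a6 and Slc6a8 in each array (points, marker shape for the replicate number) by subset, with the mean as a line and the SD as a bar (n = 4). Slc36a1 lies between 8.97 and 9.30 in PD-1hi arrays and at or below 8.64 in memory and naive arrays, and Slc36a4 is below 11.7 in every effector array.

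Slc6a6 carries taurine, an osmolyte. It was at 9.96, 9.60, 9.69 and 9.77 in PD-1hi, 9.93, 10.22, 10.15 and 10.33 in PD-1int, 9.98, 9.93, 10.15 and 10.11 in memory, and 10.20, 10.26, 10 and 10.22 in naive. PD-1hi replicates 2, 3 and 4 were below all other arrays. It was the 1 member called between the effector subsets, at -0.40 ± 0.10 in PD-1hi against PD-1int (1.32-fold lower, limma adjusted p = 0.0324). That call was lost without PD-1hi replicates 2, 3 or 4 or PD-1int replicates 2, 3 or 4, with adjusted p between 0.0683 and 0.105, and in a fit of those 8 arrays alone (0.0932). Against naive the fall was -0.41 ± 0.10 in PD-1hi (limma adjusted p = 0.00368), and it held whichever array was left out. Against memory it was -0.29 ± 0.10 (0.0468), lost without PD-1hi replicates 2, 3 or 4 or memory replicates 1, 3 or 4 (adjusted p between 0.0594 and 0.144) and without both memory replicates 1 and 4 (0.167). Slc6a8, the creatine carrier, was singled out after its values were seen. It was at 7.67, 7.52, 8.04 and 7.96 in PD-1hi, 7.58, 7.59, 7.81 and 7.70 in PD-1int, 7.29, 7.13, 7.42 and 7.40 in memory, and 7.34, 7.54, 7.43 and 7.47 in naive. Both effector subsets lay above memory, and PD-1hi replicate 2 lay inside the naive range. The rise against memory was 0.49 ± 0.11 in PD-1hi (limma adjusted p = 0.00218) and 0.36 ± 0.11 in PD-1int (0.0275). The PD-1int call was lost without PD-1int replicates 3 or 4 or memory replicates 1 or 2 (adjusted p between 0.063 and 0.101) and without both memory replicates 1 and 4 (0.0868). Against naive the rise in PD-1hi was 0.35 ± 0.11 (0.0183), lost without PD-1hi replicate 3 (0.0756), PD-1hi replicate 4 (0.0672) or naive replicate 1 (0.0566). That call was also lost in a fit of those 8 arrays alone (limma adjusted p = 0.051).

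The promoters in the table used were searched for 2 motifs on both strands, in the 250 bases upstream of each start site in RefSeq (GRCm38.p6). CACGTG, the E-box bound by Myc with Max, was found in 6.02% of 32851 promoters and in 9 of the 66 promoters (13.6%) that the table holds for 47 of the members. The 9 were those of Slc1a6, Slc1a7, Slc6a3, Slc6a16, Slc7a14, Slc36a1, Slc38a5, Slc38a7 and Slc43a1. Only Slc36a1 and Slc43a1 among them were called in any comparison. TGATGNAA, the core of the amino acid response element bound by Atf4 with a C/EBP partner, was found in 3.45% of all promoters and in 4 of the 66 (6.06%, from Slc6a21, Slc7a7 and Slc7a11). Of the 4 members higher in PD-1hi than in naive, Slc43a3 and Slc6a8 were not searched. Shown are the other 2, Slc36a1 and Slc43a1, which each held a CACGTG match, and Slc6a19, the most lowered member, which held neither motif. Capitals mark CACGTG. The match starts 31 bases before the start site in Slc36a1 (chr11:55204090-55204339, plus strand) and 64 bases before it in Slc43a1 (chr2:84840073-84840322, plus strand), and the Slc6a19 window is chr13:73692637-73692886 on the minus strand.
Slc36a1: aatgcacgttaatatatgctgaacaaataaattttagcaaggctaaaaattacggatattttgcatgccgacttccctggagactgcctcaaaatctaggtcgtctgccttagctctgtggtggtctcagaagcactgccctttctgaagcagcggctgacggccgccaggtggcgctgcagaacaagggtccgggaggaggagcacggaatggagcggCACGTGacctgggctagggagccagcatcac
Slc43a1: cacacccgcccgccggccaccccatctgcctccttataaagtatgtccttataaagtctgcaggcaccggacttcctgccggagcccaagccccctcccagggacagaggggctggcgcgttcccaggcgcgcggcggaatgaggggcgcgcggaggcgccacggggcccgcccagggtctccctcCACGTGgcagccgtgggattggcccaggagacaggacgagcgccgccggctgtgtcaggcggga
Slc6a19: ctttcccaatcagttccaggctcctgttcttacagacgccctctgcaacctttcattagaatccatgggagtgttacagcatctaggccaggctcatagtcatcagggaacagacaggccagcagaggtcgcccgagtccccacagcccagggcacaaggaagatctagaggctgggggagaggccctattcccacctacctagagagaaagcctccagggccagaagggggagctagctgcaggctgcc
A match in these letters is a description of the window and not evidence of binding.

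The 51 never called had differences between -0.39 and 0.41 over the 6 comparisons, with a median absolute difference of 0.08, and 7 of them reached 0.3 in some comparison. By family, beside the 36.1% of all genes, the members called in at least 1 comparison were 1 of 7 in Slc1, 0 of 2 in Slc3, 4 of 20 in Slc6, 3 of 16 in Slc7, 2 of 5 in Slc36, 0 of 11 in Slc38 and 3 of 3 in Slc43. Slc7a11, which exchanges cystine for glutamate, was among the dim members: it was at 5.37, 5.59, 5.33 and 5.48 in PD-1hi, 5.23, 5.53, 5.38 and 5.38 in PD-1int, 5.33, 5.30, 5.0 and 5.45 in memory, and 5.39, 5.33, 5.46 and 5.41 in naive. In all, 27 members lay at or below the 40% dimmest level, and 0 of these were called by limma.

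Genes that sense, activate or use amino acids were described beside the carriers. For scale, 13.4% of all genes were called higher and 13.7% lower in PD-1hi than in naive. In PD-1hi against PD-1int these shares were 1.37% and 1.94%. Of 35 measured genes of amino acid sensing by mTORC1, 7 were higher and 10 lower in PD-1hi than in naive, with a median difference of -0.05 beside -0.01 over all genes. Sesn1, a leucine-binding brake on mTORC1, was at 7.07, 6.88, 6.92 and 7.37 in PD-1hi, 7.32, 7.39, 7.18 and 7.52 in PD-1int, 8.32, 8.39, 7.90 and 8.58 in memory, and 9.82, 9.50, 9.68 and 9.31 in naive. It was lower in PD-1hi by -2.52 ± 0.14 against naive (limma adjusted p = 1.96e-10) and by -1.24 ± 0.14 against memory, and the effector arrays were all below the memory arrays. Fnip1, a folliculin partner, fell by 1.01 and Wdr59, a subunit of the GATOR2 complex, by 0.94 in PD-1hi against naive. Between the effector subsets 1 of 35 was called, Rptor, the mTORC1 scaffold, at -0.36 ± 0.09 in PD-1hi (limma adjusted p = 0.0395).

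Of 25 genes of the Gcn2 and Atf4 stress response, 8 were higher and 3 lower in PD-1hi than in naive, with a median of 0.01. The largest were Psat1, a serine synthesis enzyme, at 1.21 ± 0.13, Ppp1r15a, which restores translation after stress, at -1.05 ± 0.14, and Asns, asparagine synthetase, at 1.04 ± 0.22. Atf4 itself was 0.20 ± 0.07 higher (limma adjusted p = 0.0399). Between PD-1hi and PD-1int 0 of the 25 were called by limma.

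Cytosolic aminoacyl-tRNA synthetases charge tRNAs with amino acids. The list of 19 genes also held Aimp1 and Eef1e1, which are partner proteins of the synthetases and not synthetases. Of the 19, 0 were higher and 9 lower in PD-1hi than in memory, with a median of -0.25 beside 0.01 over all genes. Eef1e1 had the largest fall of the 9 (-0.87 ± 0.12, limma adjusted p = 1.85e-05). Of all genes, 10.8% were called higher and 11.1% lower in that comparison. In PD-1int against memory the counts were 0 higher and 7 lower, with a median of -0.17 (8.49% and 7.66% of all genes). Aimp1 and Eef1e1 were both among the 7. Memory itself had 6 higher, with Eef1e1 among them, and 1 lower than naive (6.70% and 5.02% of all genes). PD-1hi against naive was mixed, with 4 higher and 6 lower, and Eef1e1 was among the 6. The largest were Wars (tryptophan) at -0.72 ± 0.09, Gars (glycine) at 0.56 ± 0.08 and Tars (threonine) at 0.52 ± 0.12. Of 30 amino acid enzymes, 4 were higher and 6 lower in PD-1hi than in naive. Bckdhb, a subunit of the branched-chain ketoacid dehydrogenase, stood at -1.49 ± 0.19, and Srm, spermidine synthase, at -0.84 ± 0.12. Bckdha, the partner subunit of that dehydrogenase, was the 1 enzyme called in PD-1hi against PD-1int (-0.39 ± 0.09, limma adjusted p = 0.0289).

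Of 22 carriers of amino acids and peptides outside the 7 families, 1 was higher and 2 were lower in PD-1hi than in naive. These were Slc25a12, the mitochondrial aspartate and glutamate carrier (0.31 ± 0.10), Slc25a15, the mitochondrial ornithine carrier (-0.75 ± 0.18), and Ctns, the lysosomal cystine exporter (-0.47 ± 0.16, with overlapping arrays). Slc16a10, an aromatic amino acid carrier, was 0.86 ± 0.19 higher in PD-1hi than in PD-1int (limma adjusted p = 0.016), with overlapping arrays. Of 11 upstream factors, 2 were higher and 4 lower in PD-1hi than in naive. Myc was at 9.35, 8.65, 8.72 and 8.83 in PD-1hi, 10.08, 9.01, 9.47 and 9.57 in PD-1int, 10.93, 10.87, 11.01 and 10.91 in memory, and 10.34, 10.14, 10.75 and 10.55 in naive. Every memory array was above every other array, as for Slc7a5, and the array numbered 2 was again the lowest of each subset. In memory Myc was 0.48 ± 0.19 above naive, which was not called (limma adjusted p = 0.113). A link between Myc and Slc7a5 was not tested. Myc differed from naive by -1.56 ± 0.19 in PD-1hi (limma adjusted p = 2.83e-06). Against memory, Myc was lower by -2.04 ± 0.19 in PD-1hi (limma adjusted p = 1.78e-07) and by -1.40 ± 0.19 in PD-1int (3.08e-05). Nfe2l2, the factor that drives Slc7a11 under oxidative stress, was lower than in naive by -1.02 ± 0.14 in PD-1hi, and Hif1a was higher by 0.40 ± 0.09.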

How the data were processed

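RNA of 4 sorted CD8 T-cell subsets was measured on 16 arrays. Per the labels' protocols, RNA was extracted with an RNeasy Micro kit, labelled using WT Pico reagents and run on Affymetrix Mouse Gene 2.0 ST arrays. Per the submitters' processing notes the authors used Affymetrix Power Tools, and the sources used here name no version, summarisation method or genome build. The deposited values are log2 expression per probe set, between 2.347 and 14.125, and the base was read from that range. Of 41345 probe sets, 23521 have 1 symbol, 1814 several and 16010 none in the platform annotation, and those with 1 symbol were used. RefSeq matched 23328 of them through Entrez identifiers and changed 0 symbols. No pair of arrays held identical values.

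All 16 arrays were fitted with limma 3.58.1 in R 4.3.3, with a mean per subset, no block and eBayes, and p-values were Benjamini-Hochberg adjusted over 22180 genes. The precision is limited by 4 arrays a subset: the median standard error of a difference was 0.104. Tested on simulated data for PD-1hi against PD-1int, the fit recovered 29 of 50 genes raised by 0.5, 47 of 50 raised by 1, 31 of 50 lowered by 0.5 and 47 of 50 lowered by 1, with 5 false calls among 21980 unchanged genes. The simulated noise was normal and independent between genes and arrays, so these rates need not hold for the real comparison.

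Values per array are given for members called at an absolute log2 difference of 1 or more without overlap of arrays in any comparison, and for 14 members by role; Slc6a8 and Slc6a19os were added after their values were seen. From each related list the 3 called genes of largest difference are named for PD-1hi against naive and against PD-1int. The members and lists were chosen with earlier results of these data known. Alternatives were a replicate block, the 8 arrays compared alone, no dim genes, eBayes with trend and robust settings, median centring, quantile normalization, probe sets averaged per gene, no opposite-strand symbols, and each array left out in turn. Leaving out both memory replicates 1 and 4 was chosen after seeing the data.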

Additional observations from a re-analysis of the deposited data

Results flagged for a closer look

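In 2 of the 72 groups of 4 arrays examined for the named members, 1 array stood apart from the other 3 by Dixon's ratio, past its 95% critical value, where chance alone would flag about 1 group in 20. Slc3a2 in memory replicate 2 was 10.34, against 9.99 to 10.05 in the other memory arrays (gap over range 0.85). Slc43a3 in PD-1int replicate 1 was 9.10, against 9.34 to 9.36 in the other PD-1int arrays (gap over range 0.943). The 2 values bear on no call: Slc3a2 was called in no comparison, and the Slc43a3 calls in PD-1int were kept without that array.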

How the results depend on the processing

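For the named members 38 differences were called. Of these, 28 were kept whichever array was left out and 10 were lost in at least 1 such fit; 21 were kept under every alternative tried, and none changed sign. With a replicate block, 101 of 108 values kept their side of the threshold, Slc6a6 in PD-1hi against memory lost its call (adjusted p = 0.063) and 6 gained one: Slc7a5 in PD-1hi (0.0462) and in memory (0.00582) against naive, Slc38a2 in PD-1hi against naive (0.0278) and memory (0.0417), and Slc7a1 in memory against naive (0.0454) and in PD-1int against memory (0.046). The members higher in memory than in naive numbered 5 with that block and 5 without the 40% dimmest genes, against 3 as reported. Arrays of the same number deviated together with r from -0.048 to 0.151 across genes (median 0.036, over 0.1 in 2 of 24 pairs). The median was -0.01 for other numbers. Among the 4 arrays of another subset, an array's highest r was with its own number in 27 of 48 cases. If the number had no meaning, about 1 case in 4 would be so. The sample titles carry the same tags, AT1 to AT4, in each of the 4 subsets. The labels do not say what the number marks, so whether it pairs the samples is not known. For PD-1hi against PD-1int, the members lower numbered 0 in a fit of those 8 arrays, 2 with trend and robust settings (Slc6a6 and Slc1a5), and 0 to 1 with an array left out. With an array left out, PD-1hi against memory had 6 to 8 lower, PD-1int against memory had 1 to 3 higher and 1 to 3 lower, memory against naive had 2 to 4 higher and 2 to 3 lower. Without memory replicates 1 and 4 (chosen after seeing the data, with fewer samples), 3 were lower in PD-1hi than in memory. Of these, only Slc7a5 and Slc36a4 were also called lower with all arrays. In PD-1int against memory, 1 was higher and 1 lower. For these smaller fits no share of all genes is given, and fewer arrays alone can lose calls. The cause of the other changes was not tested. Without detection calls, differences of dim genes can be compressed, and small differences near the median standard error of 0.104 cannot be resolved with 4 arrays a subset.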
